A study of Rattus norvegicus with 11 samples.

Results

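The enzymes of the citric acid cycle were followed in ventricle tissue of Fischer-344 rats, a laboratory strain kept by inbreeding and often used in ageing studies. The cycle was represented by 8 named enzyme genes, and every probe set whose gene symbol in the platform annotation was one of them was taken. Each probe set pools several short probes for a transcript into 1 reading. This gave 8 probe sets for 5 of the 8 genes, Cs, Idh3g, Idh2, Suclg1 and Mdh2, out of 8740 probe sets in all. Idh3a, Idh3b and Fh matched no symbol or gene number in the annotation table used here and are not analysed here. Total RNA of 11 ventricle samples was hybridised, 6 from the old group of 22 months and 5 from the young group of 4 months. No treatment or genotype other than the strain is named for either group, and the sex of the animals is not given in the sources used here. Nothing in the labels says that each array stands for its own animal, so the p-values measure the spread between these arrays, which may be technical.

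The citric acid cycle burns acetyl-CoA, made from fatty acids, pyruvate and ketone bodies, inside mitochondria and hands the electrons to the respiratory chain. Heart muscle, which works without pause and is packed with mitochondria, draws most of its ATP from this route. Citrate synthase opens the cycle, the isocitrate dehydrogenases and the 2-oxoglutarate dehydrogenase complex carry out the oxidative steps that release carbon dioxide, and succinyl-CoA ligase, succinate dehydrogenase, fumarase and malate dehydrogenase return the carbon to oxaloacetate.

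No citric acid cycle enzyme passed the test between old and young ventricle, although most probe sets read lower in the old group. Of the 8 probe sets, 7 had a lower mean in old, with a median difference of -0.36 on the log2 scale (old minus young). The direction turned within the 6 arrays with dim spike-in controls (bacterial transcripts added to each sample), where 2 of 8 were lower and the median was 0.14, and the median was -0.09 with that class as a blocking factor and -0.19 without young replicate 3. Over all 5244 probe sets tested, 50.6% were lower in old and the median difference was -0.01. Bright probe sets leaned the same way, however. Among the 952 tested probe sets at least as bright as the dimmest of the 8, 64.8% were lower in old, with a median of -0.18. The widest difference was that of Cs, at -1.12 ± 0.48 (SE, limma adjusted p = 0.587), and the others lay between -0.51 and 0.07. The number of the 8 past a limma adjusted p of 0.05 was 0, against a background of 0% of the probe sets tested. At an unadjusted p under 0.05 there was 1 of 8, Cs, lower in old, where 4.12% of all tested probe sets were called lower and 3.39% higher. Among the 952 at least as bright as the dimmest of the 8, 92 were lower and 29 higher at that p. For none of the 8 were the old arrays all below or all above the young ones, which was so for 0.42% (below) and 0.553% (above) of the tested probe sets. All 8 passed the filter on low values, and none had an array at the floor set under dim values.

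The arrays also differed in technical measures. Bacterial spike-in controls, transcripts added to each sample, had a mean log2 intensity of 9.55 to 15.24 in old and 9.63 to 11.97 in young (two-sided exact permutation test, p = 0.0931, or 0.351 when adjusted for the 5 array measures tested). The widest gap between neighbouring arrays put old replicates 3, 4, 5 and 6 and young replicate 4 in a bright class and the other 6 arrays in a dim class, although that gap of 1.76 was close to the next one of 1.71. In old replicates 3 and 4 the 3' over 5' log2 ratio of the GAPDH control was 3.39 and 4.09, against 0.77 or less elsewhere. The same ratio of the actin control was also highest on those arrays, at 1.98 and 1.82. That of the hexokinase control went the other way and was lowest there, at -0.93 and -4.16. Old replicate 6 had the lowest 98th percentile of intensity, 4522.9, against 6738.0 or more on the other arrays. Cardiomyocyte markers were bright, as the labelled tissue calls for, with 10 of 11 marker genes on the array and a mean log2 intensity over their 15 probe sets of 13.46 to 14.14 in old and 14.00 to 14.34 in young. Of these 15 probe sets, 12 were lower in old, with a median of -0.25 and 0 past the threshold, and the lowest arrays were old replicates 3 and 4. Smooth muscle markers read 10.29 and 10.92 on those 2 arrays and 7.51 to 9.10 on the other old ones. All 7 tested smooth muscle probe sets (median 0.99) and all 8 atrial ones (median 1.15) were higher in old, with 0 past the threshold. The atrial ones were those of Nppa (1.18 to 1.87), Myl7 (0.95 and 1.13) and Myl4 (0.83 and 0.86). Whether they reflect atrial tissue or expression in the ventricle was not tested. Of the other marker lists, endothelial probe sets were lower in 3 of 3 (median -0.81), macrophage ones higher in 4 of 6 (0.95), blood ones higher in 2 of 2 (0.91), fibroblast ones higher in 9 of 17 (0.21), fat ones in 3 of 6 (0.36) and skeletal muscle ones in 2 of 4 (0.38), again with 0 past the threshold, and no reading on any array was 0. The lower skeletal muscle probe sets were those of Ckm and Acta1 (-0.67 and -0.09), at brightness percentiles of 99.3 and 95.6. The higher ones were those of Myh1 and Tnnt3 (0.85 and 1.01), at 67 and 64.5. The tested fibroblast probe sets split by gene. Those of Col1a1, Col1a2 and Col3a1 were all lower in old (-1.07 to -0.22). Those of Lum, Dcn, Pdgfra and Vim were all higher (0.21 to 1.19), and those of Fn1 went both ways (-0.24 to 0.72). In bulk tissue, fewer cells of a type and less RNA per cell cannot be told apart. What part these differences have in the values of the cycle enzymes was not tested.

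**Figure D1:**
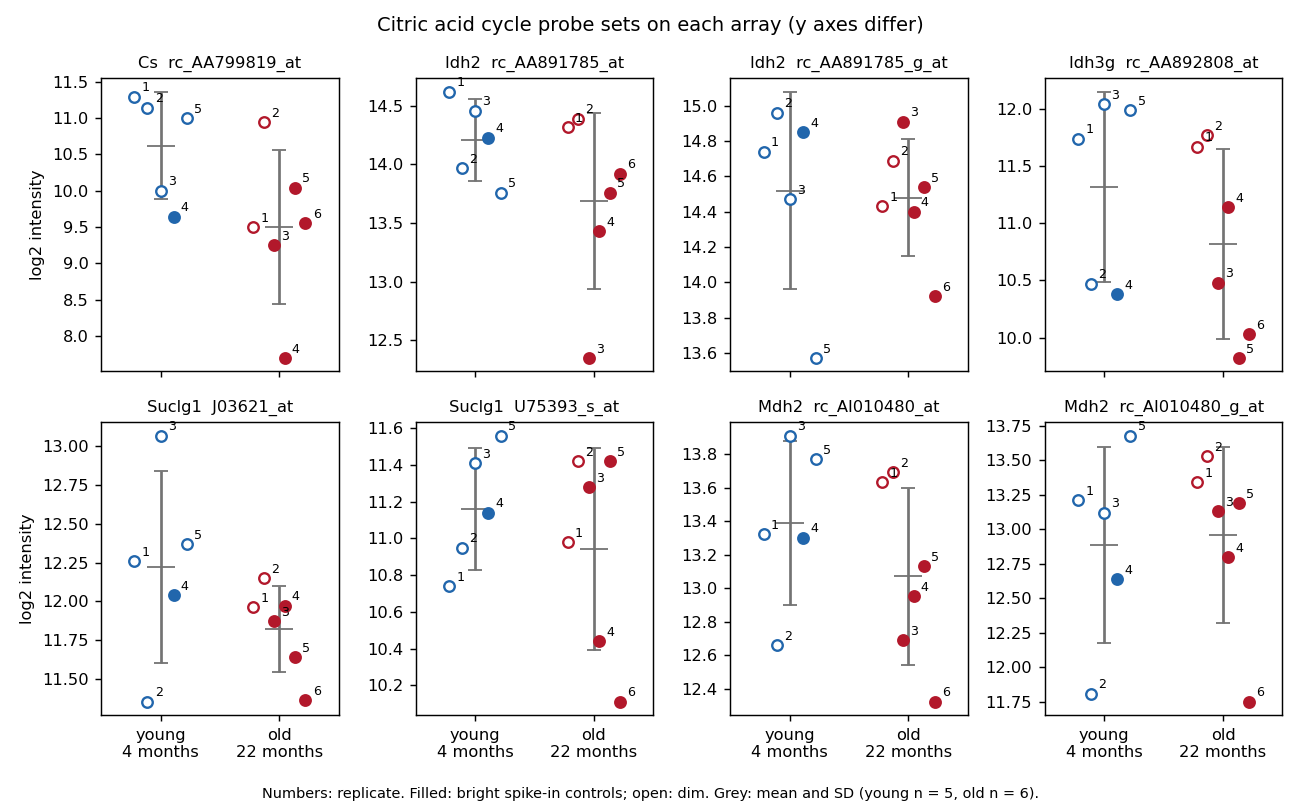
Log2 intensity of the 8 citric acid cycle probe sets on each array, by age group, with the group mean and SD in grey, replicate numbers beside the points and filled points for arrays with bright spike-in controls (the y axes differ between panels). Young and old arrays overlap in every panel, and old replicate 6 is the lowest point for Suclg1 (U75393_s_at) and for both Mdh2 probe sets.

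Cs encodes citrate synthase, which condenses acetyl-CoA with oxaloacetate and whose activity is a common measure of mitochondrial content. Its probe set (rc_AA799819_at) read from 7.70 to 10.94 on the log2 scale in old, with a median of 9.52. As deposited intensity, the old arrays, replicates 1 to 6, read 723.9, 1961.2, 610.2, 207.7, 1051.7 and 749.3, and the young arrays, replicates 1 to 5, read 2510.1, 2262.5, 1023.7, 798.3 and 2050.6, which is 9.64 to 11.29 on the log2 scale. Thus 4 of the 6 old arrays lay below every young array and 3 of the 5 young arrays lay above every old one, while old replicate 2, at 10.94, came next below them. The mean of the old arrays was 9.50 ± 1.06 (SD, n = 6) and that of the young arrays 10.62 ± 0.74 (SD, n = 5), a ratio of old over young of 0.46. The 95% interval of the difference, not adjusted for the number of probe sets tested, ran from -2.13 to -0.11 (limma unadjusted p = 0.031, adjusted p = 0.587), and its p ranked 277 among the 5244. Old replicate 4, of high GAPDH ratio, was the lowest at 7.70. Without old replicates 3 and 4 the difference was -0.61 ± 0.43 (SE, limma adjusted p = 0.904), and with spike-in class as a blocking factor it was -0.59 ± 0.48 (SE, limma adjusted p = 0.939).

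Idh3g encodes the gamma subunit of the NAD-dependent isocitrate dehydrogenase, the regulated enzyme that works together with the alpha and beta subunits of Idh3a and Idh3b. Its probe set (rc_AA892808_at) read from 9.82 to 11.77 in old with a median of 10.81, and 11.74, 10.47, 12.04, 10.38 and 11.99 in young replicates 1 to 5. The old readings were spread over that range, with replicates 1 and 2 highest at 11.67 and 11.77, replicates 4 and 3 at 11.14 and 10.48 and replicates 6 and 5 lowest at 10.03 and 9.82. Young replicates 2 and 4 read more than a whole log2 unit below the other 3 young arrays. The means of 10.82 ± 0.83 (SD, n = 6) and 11.32 ± 0.83 (SD, n = 5) differed by -0.50 ± 0.43 (SE, limma adjusted p = 0.802), with a 95% interval from -1.40 to 0.39. Within the dim arrays the difference was 0.16 ± 0.43 and within the bright arrays -0.01 ± 0.73 (SE). With spike-in class as a blocking factor it turned to 0.10 ± 0.38 (SE).

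Idh2 encodes the NADP-dependent isocitrate dehydrogenase of mitochondria, which catalyses the same conversion and supplies NADPH for antioxidant defence. Its 2 probe sets were designed on the same sequence record. The first (rc_AA891785_at) read from 12.35 to 14.39 in old with a median of 13.84, and 14.62, 13.97, 14.46, 14.23 and 13.76 in young replicates 1 to 5. Old replicate 3 stood alone at the low end, and old replicates 1 and 2, at 14.32 and 14.39, were within the young range. The difference was -0.51 ± 0.35 (SE, limma adjusted p = 0.753), and -0.11 ± 0.31 (SE) without old replicates 3 and 4. The other (rc_AA891785_g_at) read from 13.92 to 14.91 in old with a median of 14.48, and 14.74, 14.96, 14.47, 14.85 and 13.57 in young. Here young replicate 5 was the lowest array, and old replicate 3, the lowest on the first probe set, was the highest old array. Its means of 14.48 ± 0.33 (SD, n = 6) and 14.52 ± 0.56 (SD, n = 5) gave a difference of -0.04 ± 0.31 (SE, limma adjusted p = 0.982), with a 95% interval from -0.69 to 0.62.

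Suclg1 encodes the alpha subunit of succinyl-CoA ligase, which both the GDP-forming and the ADP-forming enzyme share. Its first probe set (J03621_at) read from 11.36 to 12.15 in old with a median of 11.91, and 12.26, 11.35, 13.07, 12.04 and 12.37 in young replicates 1 to 5. All 6 old arrays were below the young mean of 12.22 ± 0.62 (SD, n = 5), but young replicate 2 was the lowest of the 11. The old arrays were the tighter group, at 11.82 ± 0.28 (SD, n = 6), and the difference was -0.40 ± 0.31 (SE, limma adjusted p = 0.783). The other probe set (U75393_s_at) read from 10.11 to 11.42 in old with a median of 11.13, and 10.74, 10.95, 11.41, 11.14 and 11.56 in young. Only old replicates 4 and 6, at 10.44 and 10.11, lay below the young range. Its difference was -0.22 ± 0.32 (SE, limma adjusted p = 0.887), with a 95% interval from -0.89 to 0.45, and moved to -0.06 without old replicate 6 and to -0.01 with array weights.

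Mdh2 encodes mitochondrial malate dehydrogenase, which closes the cycle by making oxaloacetate and also serves the malate-aspartate shuttle. Its first probe set (rc_AI010480_at) read from 12.32 to 13.69 in old with a median of 13.04, and 13.32, 12.66, 13.91, 13.30 and 13.77 in young replicates 1 to 5. Only old replicate 6 lay below the young range, while old replicates 1 and 2, at 13.63 and 13.69, were close to the highest young arrays. The means of 13.07 ± 0.53 (SD, n = 6) and 13.39 ± 0.49 (SD, n = 5) differed by -0.33 ± 0.32 (SE, limma adjusted p = 0.835). The other probe set (rc_AI010480_g_at), of the same sequence record, read from 11.75 to 13.53 in old with a median of 13.16, and 13.21, 11.81, 13.12, 12.64 and 13.68 in young. It was the 1 probe set of the 8 with a higher mean in old, by 0.07 ± 0.37 (SE, limma adjusted p = 0.976), and 4 of 6 old arrays were above the young mean. Its 95% interval, from -0.70 to 0.83, takes in the difference found at each of the other 7 probe sets except that of Cs.

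The other enzymes of the cycle had 4 probe sets for 3 of 9 listed genes. Dlst encodes the succinyltransferase core of the 2-oxoglutarate dehydrogenase complex. Its probe set D90401_at read from 8.67 to 12.13 in old, with a median of 10.84, and 12.28, 11.54, 11.91, 11.12 and 12.36 in young. The low readings, 9.24 and 8.67, were those of old replicates 3 and 4, where the GAPDH ratio was high. The difference was -1.23 ± 0.52 (SE, limma unadjusted p = 0.0281, adjusted p = 0.574), while D90401_g_at, of the same record, differed by -0.46 ± 0.35 (SE, limma adjusted p = 0.776). On that probe set old replicate 3 read 11.86 and was not low. Sdha, the flavoprotein subunit of succinate dehydrogenase, differed by -0.41 ± 0.42 (rc_AA800250_at, SE, limma adjusted p = 0.845), with old replicate 6 at 10.25 and young replicate 3 at 10.42 well below the other arrays. Sucla2, the beta subunit of the ADP-forming succinyl-CoA ligase, was too dim to be tested: 10 of its 11 readings were under the floor of 47.4 intensity units.

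**Figure D2:**
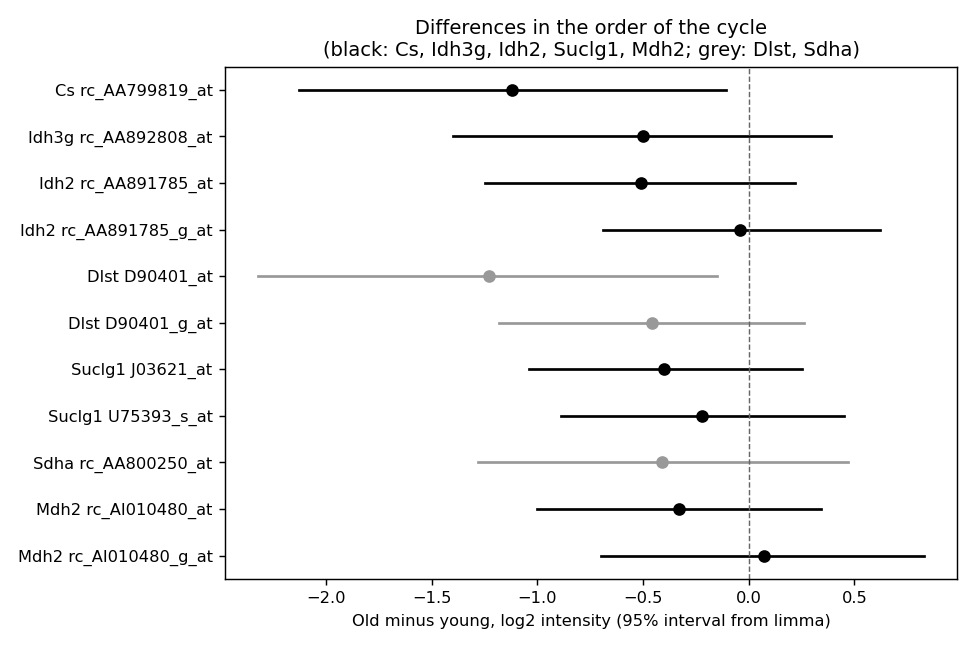
Difference between old and young in log2 intensity, with its 95% interval from limma (not adjusted over probe sets), for the tested probe sets of the cycle in the order of its steps. All but Mdh2 (rc_AI010480_g_at) lie below 0, and the intervals of Cs and of Dlst (D90401_at) do not reach 0.

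Read along the cycle, the differences on the log2 scale were -1.12 at citrate synthase, -0.50 and -0.51 to -0.04 at the NAD- and NADP-dependent isocitrate dehydrogenases, -1.23 and -0.46 at Dlst, -0.40 and -0.22 at succinyl-CoA ligase, -0.41 at Sdha and -0.33 and 0.07 at malate dehydrogenase. These are differences of each probe set with itself between groups. The differences between steps were not tested, and the 95% intervals of all of them overlap.

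The genes around the cycle were counted from lists. Of 34 tested probe sets for supply and exit of the cycle (20 of 27 listed genes), 26 were lower and 8 higher in old, with a median of -0.34 and 0 past the threshold, where 50.6% of all tested probe sets and 64.8% of those as bright as the 8 were lower. Dlat, the acetyltransferase of the pyruvate dehydrogenase complex, had 3 probe sets, all lower in old: D00092_s_at at -0.85 ± 0.53, D10655_at at -0.77 ± 0.33 and D10655_g_at at -0.31 ± 0.39 (SE, limma adjusted p = 0.72, 0.581 and 0.868). The subunits of pyruvate dehydrogenase itself gave 0.10 ± 0.44 (rc_AA799598_at) and -1.07 ± 0.87 (Z12158cds_at) for Pdha1 and 0.08 ± 0.49 (rc_AA892828_at) for Pdhb (SE). Pc, the pyruvate carboxylase that refills oxaloacetate, was higher in old by 1.53 ± 0.61 on U32314_g_at (SE, limma unadjusted p = 0.0205, adjusted p = 0.56) but differed by -0.08 ± 0.66 on U32314_at. Glud1, which feeds 2-oxoglutarate from glutamate, differed by -0.80 ± 0.59 (rc_AI137421_at), -0.35 ± 0.40 (rc_AI233216_at) and -0.02 ± 0.39 (rc_AI179613_at), and Got2, the mitochondrial aspartate aminotransferase, by -0.48 ± 0.39 (M18467_at) and -0.99 ± 0.66 (rc_AA892012_g_at). At an unadjusted p under 0.05 the list had 1 probe set higher, that of Pc, and 2 lower, D10655_at of Dlat and AF062741_g_at of Pdp2, a pyruvate dehydrogenase phosphatase chosen after its values were seen (-1.48 ± 0.57, SE). Of all tested probe sets 3.39% were higher and 4.12% lower at that p. The other Pdp2 probe set, AF062741_at, differed by only -0.13 ± 0.66 (SE).

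Cytosolic counterparts of the cycle enzymes had 11 tested probe sets, of which 5 were lower and 6 higher in old, with a median of 0.02 and 0 past the threshold. Mdh1, the cytosolic malate dehydrogenase, differed by -0.30 ± 0.29 (AF093773_s_at), close to the -0.33 ± 0.32 of the first Mdh2 probe set, and Got1 by -0.14 ± 0.35 (J04171_at, SE). Idh1, the cytosolic NADP-dependent isocitrate dehydrogenase, differed by 0.65 ± 0.46 (rc_AA892314_at) and Aco1, the cytosolic aconitase and iron sensor, by -0.10 ± 0.46 (rc_AI176621_at, SE). Acly, which splits exported citrate, differed by 0.05 ± 0.69, 0.57 ± 0.40 and 0.19 ± 0.56, and Me1, the cytosolic malic enzyme, by -0.27 to 0.84 over 4 probe sets. No difference between the cytosolic and the mitochondrial enzymes was tested.

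The readings varied from array to array within each age group. Averaged over the 8 probe sets, log2 intensity was lowest in old replicates 6, 4 and 3, at 11.62, 11.85 and 11.99, and highest in old replicate 2 and young replicate 3, at 12.82 and 12.81. Old replicate 6 was among the lowest 3 arrays for 6 of the 8 probe sets, and old replicate 4 for 4 of them. Young replicate 5 was among the highest 3 for 6 of the 8, and old replicate 2 for 5. The old arrays with dim spike-in controls, replicates 1 and 2, averaged 12.48 and 12.82, against 12.17 to 12.81 in the dim young arrays. In the dim arrays alone (2 old, 4 young), 6 of the 8 probe sets were higher in old and the median difference was 0.14, where the median of all tested probe sets was 0.07. In the bright arrays alone (4 old, 1 young), 7 of 8 were lower with a median of -0.37, where that of all was -0.14, and the spread there is that of the old arrays alone. With spike-in class as a blocking factor, 6 of 8 were lower, with a median of -0.09. Cs and Suclg1 (J03621_at) were lower in old within both classes, Cs by -0.64 ± 0.48 and -0.51 ± 1.01 and Suclg1 by -0.21 ± 0.42 and -0.33 ± 0.60 (dim and bright, SE). Without old replicates 3 and 4, 7 of 8 were lower with a median of -0.19. Leaving out single arrays moved the median to between -0.54 (without young replicate 2) and -0.19 (without young replicate 3).

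**Figure D3:**
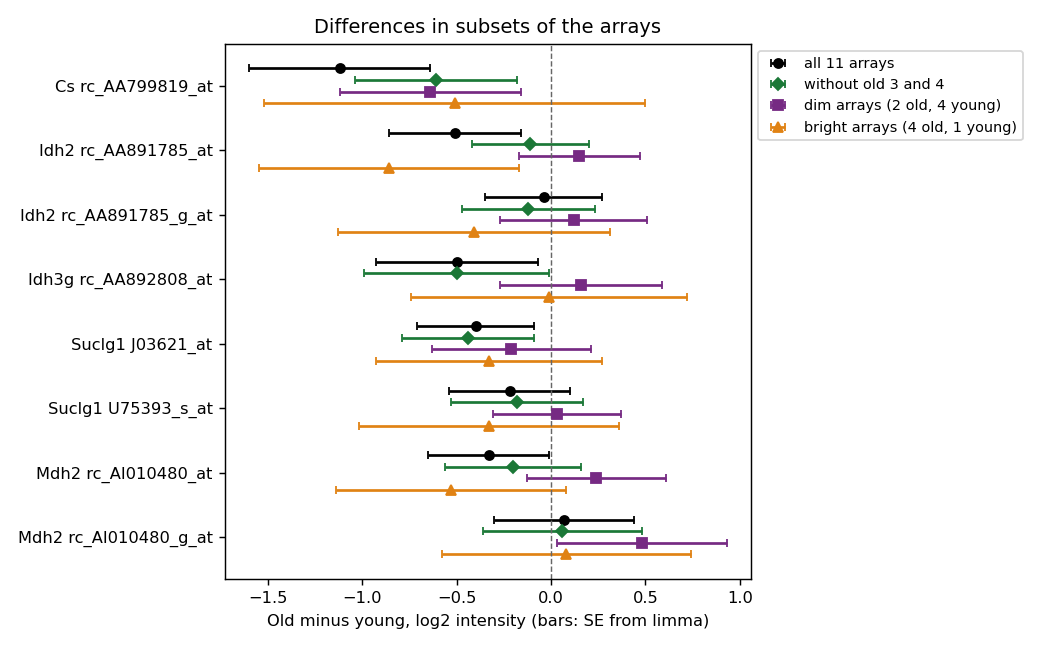
Old minus young in log2 intensity, with the SE from limma, for each citric acid cycle probe set in all 11 arrays, without old replicates 3 and 4, in the arrays with dim and in those with bright spike-in controls. Cs lies below 0 in all 4 sets of arrays, while 6 of the 8 probe sets lie above 0 in the dim arrays.

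Probe sets of different enzymes moved together across the 11 arrays in part. All 28 pairs of the 8 probe sets were compared with permutation tests of 100000 resamples and Benjamini-Hochberg adjustment. For Pearson's r, 4 pairs had an adjusted p under 0.05, among them the pair of Mdh2 probe sets. The share of pairs that would pass among other probe sets of these arrays was not computed. The 4 of 28 therefore cannot be called particular to the cycle. The first Suclg1 probe set and the first Mdh2 probe set had r = 0.83 (permutation p = 0.00105, adjusted p = 0.0199) and Spearman's rho = 0.88 (permutation p = 6.0e-04, adjusted p = 0.0168). Idh3g had r = 0.79 with Suclg1 (J03621_at, permutation p = 0.00142, adjusted p = 0.0199) and rho = 0.84 (permutation p = 0.00241, adjusted p = 0.0327). Idh3g and Mdh2 (rc_AI010480_at) had r = 0.80 (permutation p = 0.00523, adjusted p = 0.0366) and rho = 0.82 (permutation p = 0.0035, adjusted p = 0.0327). These 3 values of r were 0.80, 0.72 and 0.84 without the 2 arrays farthest from the median of the first-named enzyme on the x axis, Suclg1 in the first pair and Idh3g in the others, and 0.80, 0.76 and 0.78 after each group's mean was taken out. Scaling, spike-in class and signal range are shared by all probe sets of an array, and their part in these correlations was not tested. The other Suclg1 probe set passed with no partner. With Idh3g its r was 0.31 (permutation adjusted p = 0.64). With the Mdh2 probe sets its r was 0.66 and 0.68 (permutation adjusted p = 0.122 for each). The other Mdh2 probe set passed with the first Mdh2 probe set alone (r of 0.64 with Idh3g and with J03621_at, adjusted p = 0.123 for each). Cs passed with none, with r of 0.04 to 0.48 and adjusted p of 0.349 or more, nor did either Idh2 probe set, with r of -0.04 to 0.53 for rc_AA891785_at and -0.24 to 0.11 for rc_AA891785_g_at.

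The pairs of probe sets for 1 gene did not match each other equally. For Mdh2 they had r = 0.79 (permutation p = 0.00319, adjusted p = 0.0298) and rho = 0.72 (permutation p = 0.0161, adjusted p = 0.113), and r was 0.52 without the 2 farthest arrays. For Suclg1 r was 0.49 (permutation p = 0.131, adjusted p = 0.349) and rho 0.45 (permutation p = 0.174, adjusted p = 0.432), and for Idh2 r was -0.04 (permutation p = 0.905, adjusted p = 0.943) and rho 0.17 (permutation p = 0.614, adjusted p = 0.688). Without the 2 arrays farthest from the median of the first Idh2 probe set, r was 0.36, and for Suclg1, by the same rule, it was 0.50.

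**Figure D4:**
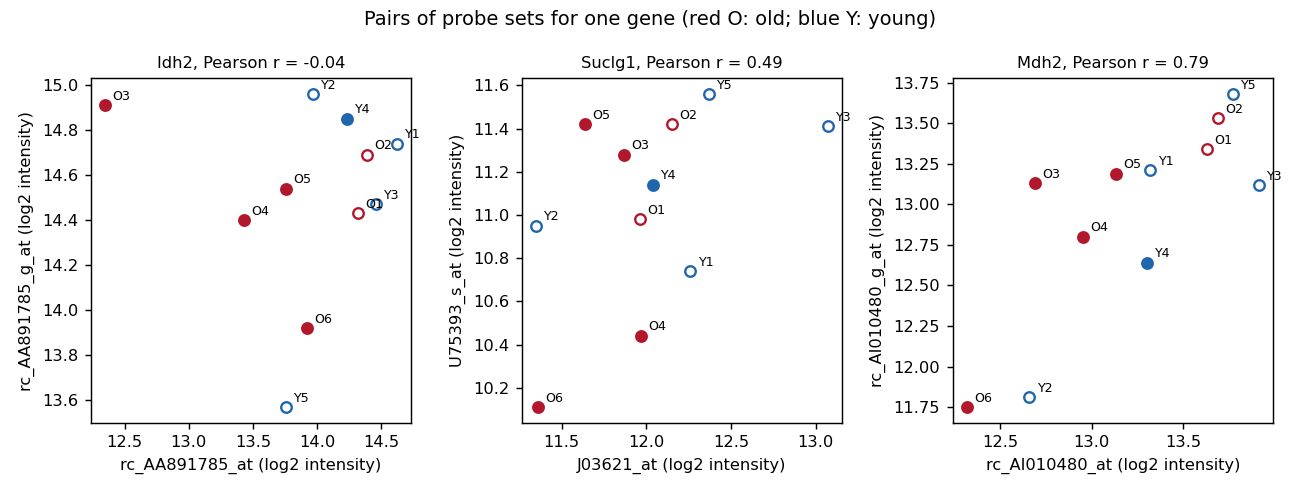
Log2 intensity of the 2 probe sets of Idh2, Suclg1 and Mdh2 against each other on the 11 arrays, with old arrays in red (O), young arrays in blue (Y) and filled points for bright spike-in controls. The Mdh2 readings go up and down together (r = 0.79), whereas old replicate 3 is the lowest array on 1 Idh2 probe set and near the top on the other.

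By the same measure, the 5 genes outside the lists whose readings were most like the mean of the 5 enzymes, each by its brightest probe set, were Tln1, Bsg, Serpinh1, Map3k1 and Fhl2, with r of 0.95, 0.94, 0.92, 0.90 and 0.90 over the 11 arrays among 3173 genes compared. They were picked as the highest values, so these r are a description and carry no test.

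The promoters of Idh3g, Suclg1 and Mdh2, each of which had a probe set in the 3 correlated pairs, and of Cs, the enzyme with the widest difference between the age groups, are shown for the 250 bases before the start of transcription, from RefSeq on assembly GRCr8, 5′ to 3′ on the gene's strand. Promoter sequence was found for 7 of the 8 named genes. Capitals mark matches on either strand to motifs of factors known to act on nuclear genes for mitochondrial proteins or on promoters at large: AAGGTCA (the half-site of estrogen-related receptors), CGCNTGCG (the core bound by NRF1), CCGGAAG (GABP and other ETS factors), GGGCGG (the GC box of SP1) and CCAAT (NF-Y). Cs lies at chr7:1348139-1348388 (plus strand), Idh3g at chrX:156675483-156675732 (minus), Suclg1 at chr4:106866079-106866328 (plus) and Mdh2 at chr12:26543842-26544091 (minus).
Cs: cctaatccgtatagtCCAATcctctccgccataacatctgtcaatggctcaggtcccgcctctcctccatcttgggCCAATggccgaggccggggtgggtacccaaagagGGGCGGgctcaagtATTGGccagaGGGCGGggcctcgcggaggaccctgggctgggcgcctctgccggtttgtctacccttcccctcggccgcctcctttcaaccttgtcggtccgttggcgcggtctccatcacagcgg
Idh3g: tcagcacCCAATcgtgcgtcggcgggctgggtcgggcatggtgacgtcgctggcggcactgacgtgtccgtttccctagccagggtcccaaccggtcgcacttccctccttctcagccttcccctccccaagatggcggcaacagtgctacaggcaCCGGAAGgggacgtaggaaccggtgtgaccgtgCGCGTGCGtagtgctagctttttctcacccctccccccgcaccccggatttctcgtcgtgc
Suclg1: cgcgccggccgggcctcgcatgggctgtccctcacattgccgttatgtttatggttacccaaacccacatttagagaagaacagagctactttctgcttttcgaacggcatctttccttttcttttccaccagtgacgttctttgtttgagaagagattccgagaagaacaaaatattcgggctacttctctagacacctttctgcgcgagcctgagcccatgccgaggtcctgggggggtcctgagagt
Mdh2: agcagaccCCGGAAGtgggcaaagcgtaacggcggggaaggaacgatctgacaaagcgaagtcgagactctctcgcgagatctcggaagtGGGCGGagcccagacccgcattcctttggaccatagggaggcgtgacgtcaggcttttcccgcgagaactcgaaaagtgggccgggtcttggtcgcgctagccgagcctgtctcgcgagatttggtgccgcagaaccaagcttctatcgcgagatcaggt

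Among the motifs searched, none was common to the promoters of Idh3g, Suclg1 and Mdh2. Idh3g held 1 match to the NRF1 core, 1 to the GABP motif and 1 to CCAAT, Mdh2 held 1 to the GABP motif and 1 GC box, and Suclg1 held 0 to any. Cs held 3 CCAAT and 2 GC box matches, in a window of 64.4% G and C, against 65.2% in Idh3g, 60% in Mdh2 and 51.6% in Suclg1. Over the 7 genes, 3 held the GABP motif, 4 a GC box, 5 CCAAT, 1 the NRF1 core and 0 the half-site of estrogen-related receptors. Over 33469 rat promoters of the same length the shares were 7.27%, 30.5%, 34%, 6.61% and 3.99%. A match is a run of letters and says nothing of whether a factor binds there.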

How the data were processed

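RNA of 11 rat ventricle samples was read on 1-colour expression arrays. The table holds intensity values as deposited by the authors, 1 linear reading per probe set and array. Which software made these readings, and with what background correction, is not stated in the sources used here. Trimmed means of 493.56 to 497.96 (2% at each end, controls left out) show that the arrays had been scaled to a common level, so changes are relative to the other transcripts of an array. A reading is not corrected for length or probe affinity, and levels of different probe sets were not compared.

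From these values, readings under the 20th percentile (47.4) were set to it, and log2 was taken. The 59 control probe sets and those under the 40th percentile of mean log2 value were left out, which left 5244. Old and young were compared with limma 3.58.1 in R 4.3.3 (lmFit, eBayes with trend), with Benjamini-Hochberg adjustment over all 5244 probe sets at 0.05. The script was tested on simulated data. The number of arrays limits the precision: the median SE was 0.56. Symbols came from the platform annotation, with 7006 probe sets of 1 symbol, 308 of several and 1426 of none; through gene numbers 6985 matched RefSeq of GRCr8 and 0 changed.

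The enzymes, lists, tests and alternatives were chosen with earlier results of these data known. Every probe set of the 8 named genes and of the rest of the cycle was named, with fixed genes of the supply and cytosolic lists; a further listed gene is not reported here. Alternatives covered the floor, filter, normalization, trend, array weights, replicate block, single arrays, spike-in class, GAPDH ratio and threshold.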

Additional observations from a re-analysis of the deposited data

How the results depend on the processing

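No citric acid cycle probe set passed the threshold under any alternative run (24 other fits and a threshold of 0.1). Over all tested probe sets, 1 passed in the dim arrays alone and 5 in the bright arrays alone, and between 0 and 2 with single arrays left out, the 2 without old replicate 5. In the dim arrays alone, 2 of the 8 were lower in old and the median turned to 0.14. The first probe sets of Idh2 (0.15), Mdh2 (0.24) and Idh3g (0.16), Suclg1 on U75393_s_at (0.03) and Idh2 on rc_AA891785_g_at (0.12) turned there too, and Idh3g also with spike-in class as a blocking factor (0.10). The Idh2 probe set rc_AA891785_g_at further turned with quantile normalization (0.03) and array weights (0.10), and ran from -0.27 to 0.08 with single arrays left out. The replicate block gave the same 0.08 as leaving out old replicate 6. Mdh2 on rc_AI010480_g_at turned with median centring (-0.22) and ran from -0.20 to 0.31 with single arrays left out. The cause was not tested. Median centring moved the median of all tested probe sets to -0.29 and that of the 8 to -0.65, and quantile normalization to -0.12 and -0.21: relative to all, the 8 stood at -0.36 and -0.09, against -0.35 as reported. Median centring also moved the share of all probe sets lower in old to 68.9%. Cs and Suclg1 on J03621_at stayed lower in old in all 24 fits, at -1.41 to -0.51 and -0.68 to -0.18. These fits are not separate tests of direction. They share arrays, and the changes of filter and trend alter the SE but cannot alter a difference.

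Same-numbered arrays correlated at -0.25 to 0.25 in their deviations from the group means, so the numbers were not taken as pairs. No young array has the number 6, so a replicate block takes old replicate 6 out of the comparison. It gave the same differences as leaving that array out, with a median of the 8 of -0.24. In the bright arrays alone the single young array was assumed to vary like the old ones. No array stood far enough from its group to be singled out for the 11 tested probe sets of the cycle (22 groups examined).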
